A study of Mus musculus with 18 samples.

Results

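The genes that carry out DNA replication were followed in newly made RNA of sorted mouse fetal liver cells, through 5 successive erythroid populations and in lineage-positive cells. The 45 genes were chosen by symbol, as known parts of the replication machinery, among the 54232 gene identifiers of the deposited count table. The rule uses no measured value, but earlier results of these data were known when the genes were chosen. All 45 symbols were matched and 44 passed the filter on low counts. The exception was Cdt1, which loads the replicative helicase together with Cdc6 and was listed at 0 counts in all 18 libraries, so that nothing can be read of its level. The text below therefore describes 44 genes: 6 subunits of the MCM helicase, 7 genes of origin binding and licensing, 5 of the GINS complex and origin firing, 6 of the sliding clamp and its loader, 9 of the polymerases and primase, 5 of single-strand binding and strand joining, 4 of nucleotide supply and the 2 E-type cyclins.

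Replication begins at origins that are bound by the origin recognition complex (Orc genes), which with Cdc6 and Cdt1 loads the ring of Mcm2 to Mcm7 onto the DNA, while geminin (Gmnn) holds Cdt1 back once origins have been used. Cyclin E with its kinase promotes entry into S phase, the GINS subunits and Mcm10 turn the loaded ring into a moving helicase, and primase, the clamp Pcna and polymerases alpha, delta and epsilon copy the strands from nucleotides that ribonucleotide reductase (Rrm1, Rrm2), thymidylate synthase (Tyms) and thymidine kinase (Tk1) help to supply. Early erythroid cells of the fetal liver divide as they mature, and then leave the cell cycle before the nucleus is lost.

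RNA was labelled with 4-thiouridine (500 µM for 45 min, after a rest of 6 h following the sort), purified, and sequenced, which enriches RNA made during the pulse. All libraries were from C57BL/6 embryos at e12.5 to e13.5 with no genetic change named in the labels, and every population except the last was lineage-negative: S0-Low (CD71-, Ter119-), S0-Medium (CD71 medium, Ter119-), S1 (CD71 high, Ter119-), S2 (CD71 high, Ter119 medium), S3 (CD71 high, Ter119 high) and Lin+ cells. CD71 is the transferrin receptor and Ter119 a surface marker of maturing red cells. The study describes S0-Low as stem and progenitor cells with burst-forming erythroid cells, S0-Medium and S1 as early and late erythroid colony-forming cells, and S2 and S3 as terminally differentiating cells. Ter119 depletion on beads preceded the progenitor sort. Each population had 3 libraries, whose total counts ranged from 9452476 (S0-Low replicate 3) to 40567976. The sources used here do not say whether replicates came from separate litters or sorts, so p-values measure only the spread between these libraries.

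The populations are mixtures defined by surface markers, and in such bulk RNA a smaller share of replicating cells and less RNA per cell cannot be told apart. The summed level of 8 erythroid marker genes was 513 to 1336 CPM (counts scaled to library size) in S0-Low, 23855 to 44670 in S3 and 360 to 366 in Lin+. Of the 8 myeloid markers the sum was 3298 to 5470 in Lin+, 441 to 781 in S0-Low, and at most 5.2 in S3, where 5 of the 8 were at 0 in all 3 libraries. Among these 5, Itgam was at 0 in all 18 libraries, Lin+ included, so nothing can be read from it. The 6 progenitor markers summed to 968 to 1397 in S0-Low, 985 to 1603 in Lin+ and 1.37 to 10.3 in S3. Thus the Lin+ libraries, which their labels also call erythroblasts, were low for erythroid and high for myeloid markers, and S0-Low held some myeloid signal. Its part in the differences from S0-Low was not tested.

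As a group, the replication genes had their lowest erythroid level in S0-Low, a higher one in each successive population up to S2, and a lower one again in S3. The mean of log2(CPM + 0.5) over the 44 genes was 6.74 ± 0.29 (SD, n = 3) in S0-Low, 7.08 ± 0.21 for S0-Medium, 7.59 ± 0.24 in S1, 7.86 ± 0.24 in S2, 7.64 ± 0.18 in S3 and 6.53 ± 0.18 in Lin+. The 3 S0-Low libraries lay at 6.82, 6.98 and 6.42 and the 3 S1 libraries at 7.43, 7.48 and 7.87, without overlap, whereas neighbouring populations from S1 to S3 overlapped. The range was 7.65 to 8.12 in S2 and 7.43 to 7.78 in S3. Taken by replicate number (1, 2, 3), the S2 libraries lay at 7.65, 7.82 and 8.12, each above the S1 library of its number. The S3 libraries lay at 7.43, 7.705 and 7.78, each below that of S2. What a shared number stands for is not stated. The 44 genes together held 0.776% ± 0.127 of all counts in S0-Low, 1.42% ± 0.22 in S2, 0.976% ± 0.059 in S3 and 0.624% ± 0.092 in Lin+. These means describe chosen genes and carry no test.

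How far the group mean in S3 stood below that in S2 depended on the scaling. CPM values were scaled by TMM, which sets libraries to a common level over most genes, and the TMM factors were 1.14 to 1.26 in S0-Low but 0.582 to 0.766 in S3. With library totals alone the group mean was 7.01 ± 0.25 in S0-Low, 7.78 ± 0.22 in S2 and 7.08 ± 0.10 in S3. The excess of S3 over S0-Low was thus 0.90 log2 units by TMM and 0.077 by totals. By totals S2 replicate 3 was not above S1 replicate 3 (7.942 against 7.959). Over all tested genes the median log2 fold change of S3 against S0-Low was -0.54 by TMM and -1.36 by totals. Relative to that median the replication genes stood 1.32 higher by TMM and 1.30 higher by totals. In S3 against S2 the median of all tested genes was -0.31 by TMM and -0.82 by totals. The replication genes stood only 0.053 and 0.042 above it.

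**Figure D1:**
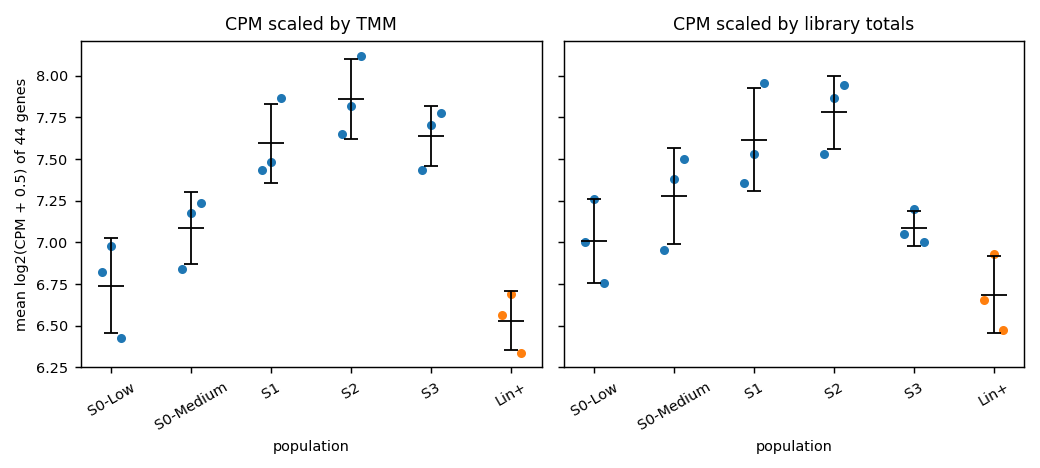
Mean log2(CPM + 0.5) of the 44 replication genes in each library (points), by population, with libraries scaled by TMM (left) or by their totals (right); horizontal marks and bars are mean ± SD of 3 libraries, and Lin+ is drawn in orange. Both scalings rise from S0-Low to S2, while S3 lies at 7.64 by TMM and 7.08 by totals.

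The population with the highest mean differed between genes. In the TMM-scaled means over the 5 erythroid populations, 22 genes (50%) were highest in S2 and 17 (38.6%) in S3, against 14.6% and 27.2% of all tested genes. The 22 with a maximum in S2 included all 6 MCM subunits, Orc2, Orc5, Cdc6, Gins1, Gins2, Mcm10, 3 of the clamp-loader genes, Rpa2 and Ccne1. The 17 with a maximum in S3 included all 4 genes of nucleotide supply, both primase subunits, Pola1, Pcna, Fen1, Lig1, Rpa1, Gmnn and Ccne2. Some of these maxima were near ties with S2. The ratio of S3 to S2 means ran from 1.009 for Fen1 and 1.01 for Lig1 to 1.93 for Rrm2. Orc3, Rfc3 and Pold2 were highest in S1, Orc4 in S0-Medium and Rfc2 in S0-Low. By library totals 29 genes (65.9%) were highest in S2 and 3 (6.82%) in S3, against 12% and 15.8% of all genes. The share with a maximum in S2 exceeded that of all genes on both scales, while the share in S3 was above it by TMM and below it by totals.

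**Figure D2:**
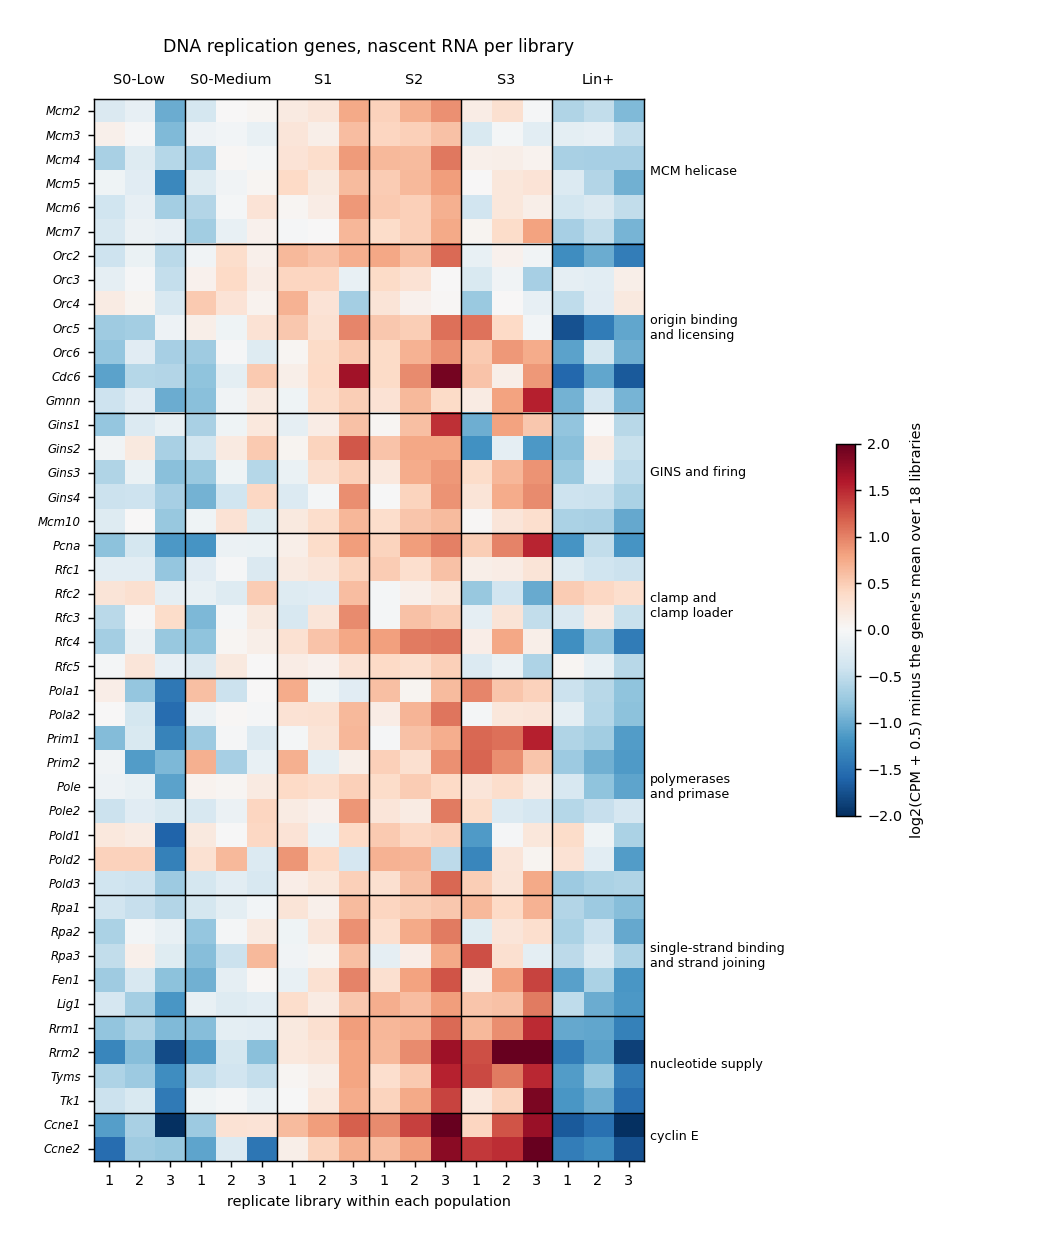
Level of each of the 44 tested genes (rows, grouped by role) in each of the 18 libraries (columns, replicates 1 to 3 within a population), as log2(CPM + 0.5) minus the mean of that gene over all libraries; the colour scale ends at -2 and 2. S0-Low and Lin+ are mostly blue and S2 mostly red, and the darkest red cells include Rrm2 and Ccne2 in S3 and Cdc6 and Ccne1 in S2 replicate 3.

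Compared per kilobase of transcript, which allows levels of different genes to be set side by side, the order of the genes changed along the series. In S0-Low the highest were Mcm3 (168 CPM per kb), Mcm7 (127), Pcna (118) and Mcm6 (103). In S3 they were Rrm2 (976), Pcna (412), Fen1 (251) and Rrm1 (236). Gins2 was the lowest of the 44 in every population, at 5.63 CPM per kb in S3 and 15.9 in S2. The length used was that of the longest coding transcript (3900 bases for Gins2), and the order depends on that choice. In CPM without this division Rpa3 stood below Gins2 in every population but S3. The levels of Rpa3 and Gins2 were 22.9 and 62 CPM in S2, and 28.65 and 21.96 in S3.

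Among the 5 erythroid populations, 19 of the 44 genes differed by edgeR's quasi-likelihood F test at an adjusted p under 0.05, against 24.6% of all 16555 tested genes. They were Mcm4, Orc2, Orc6, Cdc6, Gmnn, Gins3, Pcna, Rfc4, Prim1, Pold3, Rpa1, Fen1, Lig1, Rrm1, Rrm2, Tyms, Tk1, Ccne1 and Ccne2. By role, 4 of 4 nucleotide supply genes, 2 of 2 E cyclins and 1 of 6 MCM subunits passed. With the replicate block the count was 30, against 33.1% of all genes, and 5 of 6 MCM subunits passed. By library totals it was 13 (29.5%), against 28.4% of all genes, so the share of the 44 lay close to that of all genes on that scale. Without S0-Low replicate 1 the unblocked count by TMM was 11 (25%), the lowest with any library left out, against 19.3% of all genes in that fit.

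No single step up to S2 gave a call. In S0-Medium against S0-Low, S1 against S0-Medium and S2 against S1 no replication gene passed, and edgeR called no gene of the 16555 in any of the 3 steps. With the replicate number as a block, for libraries that paired in these steps, it called 22 genes higher and 1 lower, then 28 and 29, then 0 and 0, and none of them was one of the 44. At an unadjusted p under 0.05 edgeR's counts were 1, 9 and 0 genes higher (1.78%, 1.68% and 1% of all genes) and 0 lower in each step (1.47%, 5.18% and 3.03%). DESeq2 also called 0 of the 44 in each step at an adjusted p under 0.05. It called 0.169%, 0.199% and 0.0362% of all genes higher and 0.115%, 2.22% and 0.858% lower. The direction was nevertheless shared by most genes: the fitted fold change was above 0 in 40, 42 and 43 of 44, with median log2 fold changes of 0.30, 0.49 and 0.29 against 0.027, -0.022 and -0.047 over all tested genes. By library totals it was above 0 in 39, 38 and 33 of 44, with medians of 0.27, 0.34 and 0.14 against -0.014, -0.17 and -0.17. All 3 libraries of the later population lay above all 3 of the earlier one in 9, 21 and 4 genes, where this held for 5.85%, 7.72% and 3.18% of all genes. They lay wholly below in none of the 44 (6.25%, 9.88% and 8.21% of all genes). The smallest p in each step belonged to Ccne1 (log2 fold change 1.24 ± 0.49 SE, adjusted p = 1), Rrm2 (1.15 ± 0.40, adjusted p = 0.46) and again Rrm2 (0.77 ± 0.39, adjusted p = 1).

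Over the steps to S1 together, 3 genes rose: Ccne1, Rrm2 and Rrm1. In S1 against S0-Low 3 of 44 passed upwards and none downwards, where 0.979% and 1.95% of all tested genes did, and the fitted fold change was above 0 in 43 of 44. DESeq2 called 8 upwards, against 2.22% of all genes. Same-numbered libraries of these populations deviated together, and when that number entered the model as a block, 15 genes rose, against 2.81% of all genes: Mcm4, Orc2, Orc5, Orc6, Cdc6, Pcna, Rfc4, Prim1, Rpa1, Fen1, Lig1, Rrm1, Rrm2, Ccne1 and Ccne2. The unblocked calls were fragile, since leaving out S0-Low replicate 2 left 1 and leaving out any of the other 5 libraries left 0, where 0.208% to 0.48% of all genes were called upwards. All 3 S1 libraries were above all 3 of S0-Low in 30 genes and below in none (14.1% and 13.9% of all genes). Median log2 fold changes by role lay between 0.49 for the clamp genes and 1.73 for the E cyclins.

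From S2 to S3 few genes passed. In S3 against S2, 2 of 44 fell (Orc2 and Gins2) and none rose, against 6.09% and 3.26% of all tested genes, and 17 fold changes were above 0 and 27 below (3 and 41 by library totals). With the replicate block Prim1 rose and Orc2, Gins2 and Rfc5 fell, 1 and 3 of 44 against 7.3% and 11.3% of all genes. DESeq2 called Prim1 and Rrm2 upwards and Orc2, Gins2 and Rfc5 downwards, against 7.79% and 12.3%. None of these shares of the 44 exceeded that of all genes. The S3 libraries were all above S2 in 1 gene and all below in 17 (8.65% and 14.7% of all genes). By library totals 11 fell and none rose, against 13.7% and 1.74% of all genes. Leaving out S3 replicate 2 left 1 of the falls and leaving out any other of the 6 libraries left none, where 2.92% to 9.11% of all genes fell, while without S2 replicate 3 there was 1 rise (4.8% of all genes). By role, the median log2 fold change was -0.52 for the MCM subunits, -0.51 for the clamp genes, -0.36 for origin binding and licensing, -0.27 for GINS and firing, -0.19 for polymerases and primase, 0.046 for strand joining, 0.32 for the E cyclins and 0.34 for nucleotide supply. By library totals all 8 of these medians were below 0, from -1.02 for the MCM subunits to -0.16 for nucleotide supply. Over all tested genes the median in this step was -0.31 by TMM and -0.82 by totals, beside -0.26 and -0.78 for the 44 genes. By that measure the 44 genes together fell no more than all genes.

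Between the ends of the series, S3 against S0-Low, 21 of 44 genes rose and none fell, where 13.4% of all tested genes rose and 22.4% fell. The 21 were Orc5, Orc6, Cdc6, Gmnn, Gins3, Gins4, Pcna, Rfc4, Pola1, Prim1, Prim2, Pold3, Rpa1, Fen1, Lig1, Rrm1, Rrm2, Tyms, Tk1, Ccne1 and Ccne2. None of the 6 MCM subunits was among them. By library totals 7 rose and 6 fell, against 6.98% and 37.6% of all genes, and the fold change was above 0 in 22 of 44. The 7 were Rrm2, Rrm1, Tyms, Prim1, Pcna and both E cyclins. DESeq2 called 22 upwards and 2 downwards (Rfc2 and Rfc5), against 14.9% and 29.1% of all genes. All 3 S3 libraries were above S0-Low in 28 genes and below in 1, Rfc2 (16.3% and 26.3% of all genes).

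**Figure D3:**
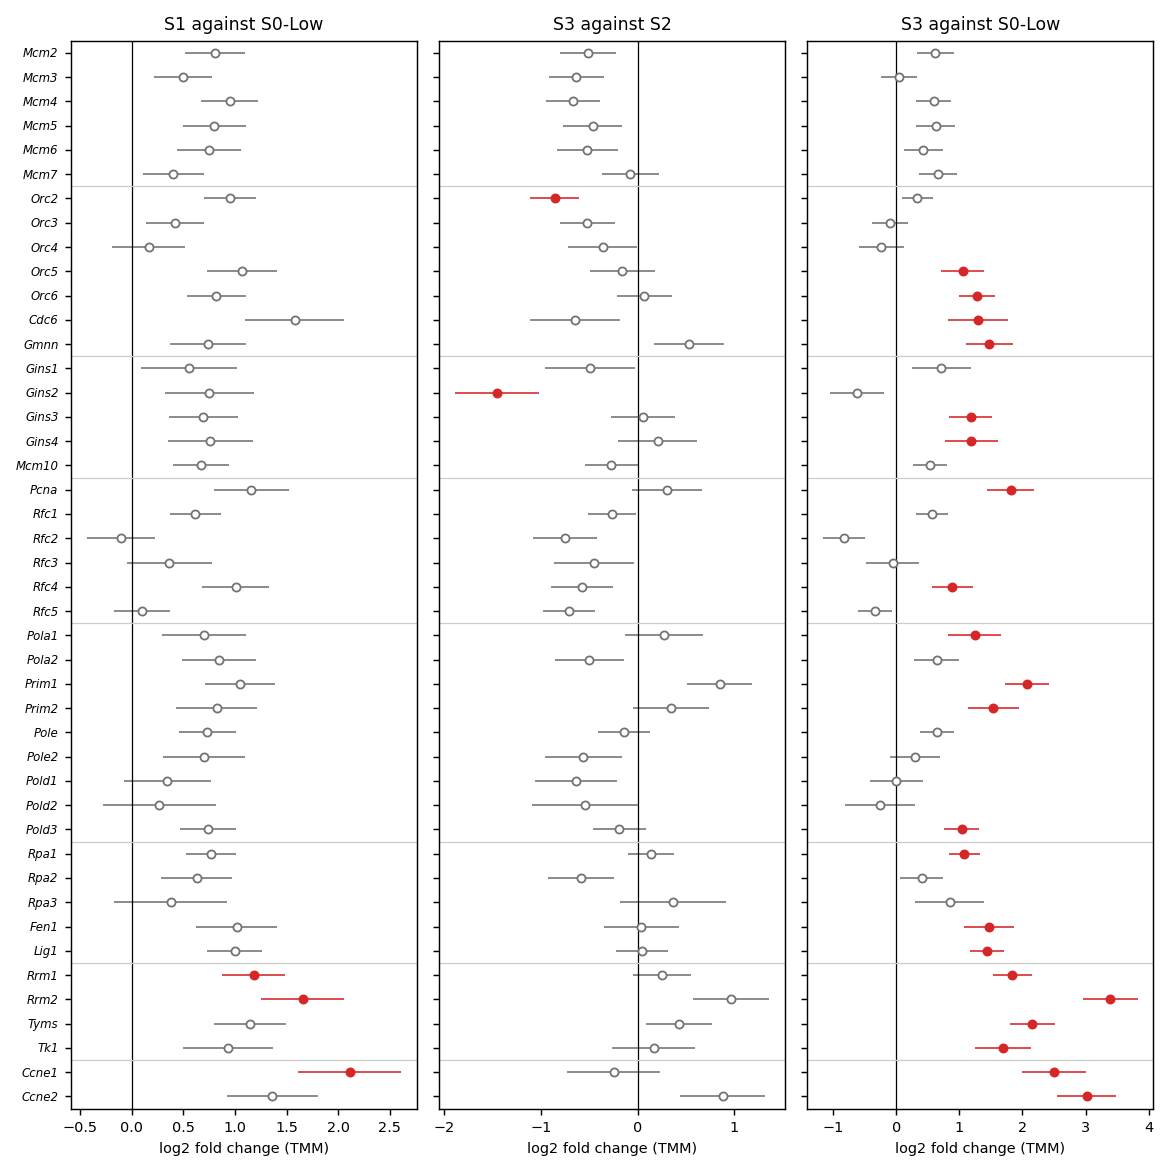
Log2 fold change of the 44 genes (rows, in role order) in S1 against S0-Low, S3 against S2 and S3 against S0-Low, from edgeR with TMM; bars are 1 SE on either side and filled red points passed an adjusted p under 0.05. The MCM genes lie above 0 on the left and below 0 in the middle, and the 3 points furthest above 0 on the right are Rrm2 (3.39), Ccne2 (3.02) and Ccne1 (2.50).

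The MCM subunits, which together form the ring-shaped helicase, had their highest mean in S2. Their group mean of log2(CPM + 0.5) was 8.47 ± 0.32 in S0-Low, 9.23 ± 0.32 in S1, 9.49 ± 0.17 in S2 and 8.97 ± 0.15 in S3. Mcm3 (chr1:20802966-20820312, GRCm38.p6) stood at 618, 572 and 314 CPM in S0-Low, 685, 628 and 892 in S1, 777, 801 and 870.3 in S2 and 469.5, 564 and 502 in S3. All 3 S2 libraries were above all S3 libraries, and S3 lay inside the range of S0-Low. In S3 against S1 Mcm3 had the lowest fold change of the 6 (-0.45 ± 0.28, adjusted p = 0.272), and by library totals it passed (-1.10, adjusted p = 0.00953). Mcm7 (chr5:138164583-138172111), whose gene also overlaps Ap4m1 and 3 microRNA genes, had 345, 399 and 387 CPM in S0-Low, 559, 605 and 729 in S2 and 448, 558 and 758 in S3. Its S3 libraries were all above the S0-Low libraries and overlapped those of S2. The difference of S3 from S0-Low was 0.66 ± 0.30 (adjusted p = 0.0947) and turned to -0.21 by totals.

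In origin binding and licensing the subunits of the recognition complex had different maxima. Orc2 (chr1:58462771-58505113) had 143, 172 and 130.2 CPM in S0-Low, 180, 242 and 204 for S0-Medium, 298, 284 and 314 in S1, 325, 289.8 and 415 in S2, 171, 202 and 181 in S3 and 80.2, 94.7 and 72.1 in Lin+. The S1 and S2 libraries were thus all above every other library, and Lin+ was below all. Its fall in S3 against S2 was -0.86 ± 0.25 (adjusted p = 0.0433), with a block 0.01 and by totals 0.0036, but it was lost when any of the 6 libraries was left out. Orc5 rose from 66.6, 68.5 and 102 CPM in S0-Low to 233, 144 and 105 in S3 (ratio of means 2.03), and Orc6 had a ratio of 2.39. Orc4 had 67.9, 62.4 and 48.3 CPM in S0-Low and 35.7, 60.7 and 53.7 in S3, which overlapped (-0.24 ± 0.36, adjusted p = 0.624), and by totals it was lower (-1.08, adjusted p = 0.0202). Cdc6, the loading factor, went from 144, 203 and 200.4 CPM in S0-Low to 392, 582 and 1135 in S2 and 447, 326 and 552 in S3. In S1 and in S2 replicate 3 was higher than any other library of its population, at 963 and 1135 CPM.

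Gmnn (chr13:24751845-24761937), the inhibitor of licensing, had the largest rise of this group in S3. It stood at 88.8, 101 and 59.6 CPM in S0-Low, 112, 152 and 167 in S1, 146, 186 and 155 in S2 and 133, 208 and 351 in S3. All S3 libraries exceeded all S0-Low libraries, and S3 overlapped S1 and S2. The rise over S0-Low was 1.48 ± 0.37 (adjusted p = 0.00696), with 0.60 by totals (adjusted p = 0.185), and the difference from S1 was 0.74 ± 0.37 (adjusted p = 0.161).

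Among the GINS genes, which form a complex of 4 subunits, Gins2 was the only one with a fall that passed. Gins2 (chr8:120581266-120589075) had 35.7, 43.1 and 23.9 CPM in S0-Low, 39, 51.3 and 89.3 in S1, 56.4, 64.9 and 64.7 in S2 and 16.1, 33.1 and 16.8 in S3. Its S3 libraries were all below those of S1 and S2, and overlapped S0-Low. The Gins2 gene overlaps Gse1, so its reads may not be separable from those of Gse1. The fall was -1.46 ± 0.43 against S2 (adjusted p = 0.0467) and -1.37 ± 0.43 against S1 (adjusted p = 0.0375). Against S2 it stayed called only without S3 replicate 2, and against S1 it was lost without S1 replicate 2, S1 replicate 3, S3 replicate 1 or S3 replicate 3. Gins4 rose from 45, 45.6 and 38.4 CPM in S0-Low to 72.8, 102 and 117 in S3 (1.19 ± 0.42, adjusted p = 0.0364). That call was lost on leaving out any of 5 of the 6 libraries, all but S3 replicate 1, and by totals (adjusted p = 0.533). Gins3 had 52.5, 72.5 and 80.4 CPM in S1 and 74.5, 91.9 and 108 in S3, overlapping (0.49 ± 0.33, adjusted p = 0.311).

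Pcna (chr2:132249286-132253180) is the ring that tethers the polymerases. It had 169, 235 and 134 CPM in S0-Low, 326, 385 and 534 in S1, 409, 533 and 603 in S2 and 420, 594 and 861 in S3. Every library of S1, S2 and S3 was above every library of S0-Low, and those 3 populations overlapped one another. Its rise in S3 against S0-Low was 1.81 ± 0.37 (adjusted p = 0.00172) and also passed by totals (0.94, adjusted p = 0.0419). Of the 5 loader genes, Rfc4 had a ratio of S3 to S0-Low means of 1.83 and Rfc1 of 1.47, whereas Rfc3 (0.94), Rfc5 (0.779) and Rfc2 (0.557) were below 1. Rfc2 had 115, 121 and 85.7 CPM in S0-Low, 94, 104 and 113 in S2, 57.1, 74.3 and 48 in S3 and 138, 129 and 122 in Lin+. The S3 libraries lay below all others and the Lin+ libraries above S0-Low. The difference of S3 from S0-Low was -0.82 ± 0.33 (adjusted p = 0.064), and by totals it passed (-1.64, adjusted p = 0.0027). Rfc5 had 109.8, 105 and 116 CPM in S2 and 68.4, 75.5 and 53.9 in S3 (-0.71 ± 0.27, adjusted p = 0.107, with the block 0.0425).

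Of the polymerase genes, the primase subunits rose most. Prim1 (chr10:128015215-128030030), the catalytic subunit that lays down RNA primers, had 54.1, 80 and 38.7 CPM in S0-Low, 95.9, 118 and 157 in S1, 96.9, 148 and 164 in S2 and 219, 212 and 291 in S3. All S3 libraries were above every library of the other populations. The rise was 2.07 ± 0.35 over S0-Low (adjusted p = 4.18e-04) and 1.03 ± 0.34 over S1 (adjusted p = 0.0449). The call over S1 held only when S1 replicate 3 was the library left out, and was absent by totals (0.36, adjusted p = 0.448). Prim2 and Pola1, the partners of Prim1 in the primer-making complex, had ratios of S3 to S0-Low means of 2.87 and 2.35, and Pola2 of 1.56. The ratios of the polymerase delta and epsilon genes ranged from 0.833 for Pold2 to 2.04 for Pold3, the only one of these 5 that was called. Pold2 had 53.1, 53.1 and 14.7 CPM in S0-Low and 15.3, 45.6 and 39.8 in S3, which overlapped (-0.26 ± 0.55, adjusted p = 0.735).

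In the group that covers single strands and joins fragments, Fen1, the nuclease that trims the flaps between fragments, had 200.5, 262 and 186 CPM in S0-Low, 296, 404 and 658 in S1, 410.1, 572 and 788 in S2 and 364, 584 and 837 in S3. The S3 libraries were all above S0-Low and spread across the range of S1 and S2. Its rise over S0-Low was 1.47 ± 0.40 (adjusted p = 0.0102), and it was not called without S3 replicate 3 or by totals (adjusted p = 0.214). Lig1, which seals the nicks, had a ratio of means of 2.69. Of the 3 RPA subunits, which bind single strands as a trimer, Rpa1 was called with a ratio of 2.09, while Rpa2 (1.31) and Rpa3 (1.76) were not. Rpa3, which has the shortest transcript of the 45, had 17.7, 19.5 and 28.5 CPM in S1 and 46.5, 23.3 and 16.2 in S3 (0.47 ± 0.55, adjusted p = 0.572). Rpa2 had 130, 165 and 262 CPM in S1 and 117, 164 and 174 in S3 (-0.22 ± 0.34, adjusted p = 0.669). The sign of both differences changed when 1 library was left out.

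All 4 genes of nucleotide supply rose in S3 against S0-Low. Rrm2 (chr12:24708254-24714146), the small subunit of ribonucleotide reductase, had 199, 274 and 142 CPM in S0-Low, 228, 388 and 275 for S0-Medium, 569.5, 587 and 852 in S1, 777, 949.5 and 1603 in S2, 1205, 2174 and 3039 in S3 and 186, 234 and 134 in Lin+. Each of S1, S2 and S3 lay wholly above S0-Low and S0-Medium, and S3 overlapped S2 through S3 replicate 1. The mean in S3 was 10.4 times that in S0-Low and 1.93 times that in S2. The rise was 1.65 ± 0.40 in S1 against S0-Low (adjusted p = 0.0366), 1.74 ± 0.40 in S3 against S1 (adjusted p = 0.00762) and 3.39 ± 0.43 in S3 against S0-Low (adjusted p = 4.41e-05). The last 2 passed in every alternative tried, including library totals and each library left out.

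Rrm1 (chr7:102441695-102469771), the large subunit, went from 258, 296 and 244 CPM in S0-Low to 512, 560.3 and 805 in S1, 713, 726 and 984 in S2 and 706, 857 and 1264 in S3. Its rise to S1 was 1.18 ± 0.31 (adjusted p = 0.0495; by library totals 1.00, adjusted p = 0.075) and its ratio of S3 to S0-Low means was 3.54. Per kilobase, Rrm1 and Rrm2 stood at 66.6 and 93.4 CPM in S0-Low and at 236 and 976 in S3. Tyms had 72.5, 67.4 and 46.8 CPM in S0-Low, 141, 160.2 and 324 in S2 and 278, 229 and 319.8 in S3, a rise of 2.16 ± 0.36 (adjusted p = 3.78e-04) with no overlap of S3 and S0-Low. Tk1 had a ratio of means of 3.24, and its rise was not called without S3 replicate 3. Tk1, Fen1, Lig1, Rpa1, Rfc4 and Ccne2 each overlap another protein-coding gene, whose reads may not be separable.

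The E cyclins, which drive the start of S phase, had different maxima. Ccne1 (chr7:38097984-38107490) had 82.3, 114 and 26 CPM in S0-Low, 108, 218 and 214 for S0-Medium, 276, 318 and 407 in S1, 342, 461 and 712 in S2 and 239, 426 and 591 in S3. It rose early: all S1 libraries exceeded all S0-Medium libraries, and S3 lay above S0-Medium and spread across S1 and S2. The rise in S1 against S0-Low was 2.11 ± 0.50 (adjusted p = 0.033). Ccne2 (chr4:11190433-11204779) had 54.5, 95.8 and 92.7 CPM in S0-Low, 75.5, 129.8 and 57.8 for S0-Medium, 170.4, 216 and 258 in S1, 239.8, 280 and 554 in S2 and 420.4, 439 and 1090.4 in S3. Its S3 libraries were all above those of S1 and overlapped S2, with S3 replicate 3 the highest of all 18. The rise in S3 was 1.66 ± 0.45 against S1 (adjusted p = 0.0179, lost without S1 replicate 1, S1 replicate 2 or S3 replicate 3, and by library totals 0.94 with adjusted p = 0.0976) and 3.02 ± 0.47 against S0-Low (adjusted p = 2.19e-04).

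**Figure D4:**
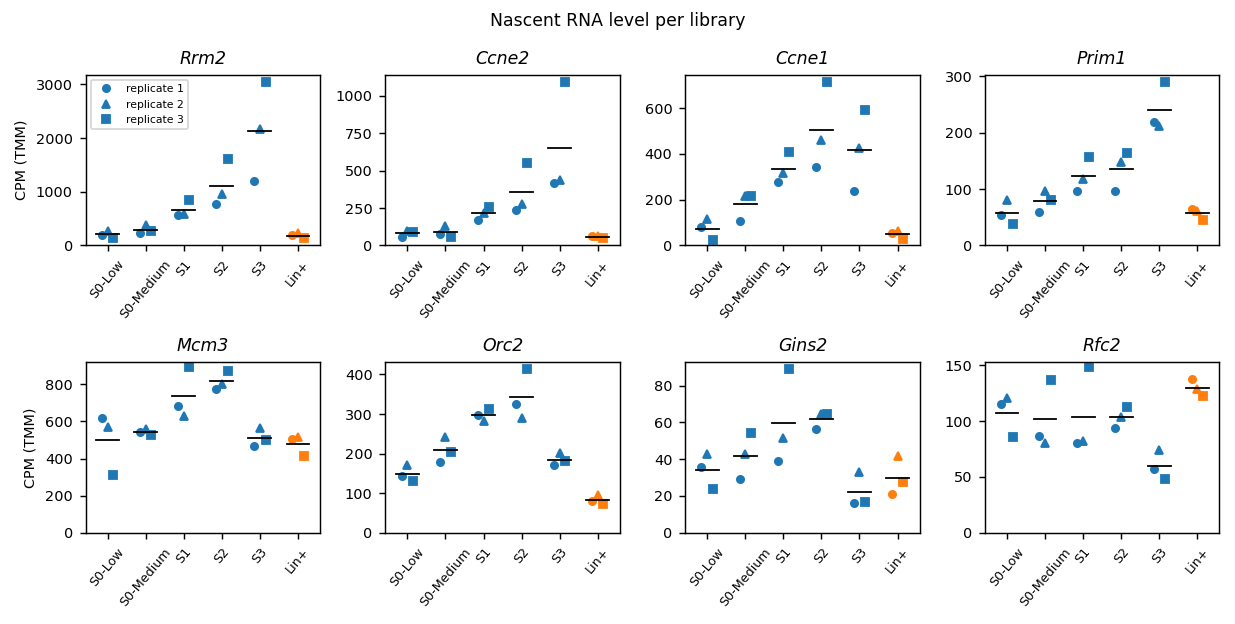
Level in CPM (TMM) of 8 genes in each library, by population; symbols mark the replicate number, black lines are means of 3 libraries, and each vertical axis starts at 0. Rrm2, Ccne2 and Prim1 are highest in S3, Mcm3, Orc2 and Gins2 stand lower in S3 than in S2, and Rfc2 is lowest in S3 and highest in Lin+.

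S1 is the last population without Ter119. In S3 against S1, 3 of 44 rose (Rrm2, Ccne2 and Prim1) and 1 fell (Gins2), against 7.21% and 12.1% of all tested genes, so neither share exceeded that of all genes. With the replicate block 6 rose (the same 3 with Prim2, Rrm1 and Tyms) and 2 fell (Gins2 and Orc2), against 11.1% and 18.2% of all genes. By totals 1 rose and 12 fell, against 3.54% and 23.6%. All 3 S3 libraries were above S1 in 6 genes and below in 7 (12.7% and 29.1% of all genes). Leaving out S1 replicate 1, S1 replicate 2 or S3 replicate 3 left 1 rise (3.36% to 4.36% of all genes), and Gins2 was lost without 4 of the 6 libraries.

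In Lin+ cells the replication genes stood near or below their level in S0-Low. In Lin+ against S0-Low none of 44 passed in either direction by edgeR, where 0.496% of all 17755 tested genes were higher and 0.22% lower, and at an unadjusted p under 0.05 there were 3 lower and 0 higher (2.96% and 6.89% of all genes). All 3 Lin+ libraries were below S0-Low in 7 genes and above in 1, Rfc2 (5.61% and 16.9% of all genes). The fold change was below 0 in 41 of 44, with a median of -0.26. DESeq2 and the block each called Orc2 lower (-0.91 ± 0.24 by edgeR without the block, adjusted p = 0.106, and 0.034 with it). Orc5 had 32.5, 41.2 and 53 CPM in Lin+, below all S0-Low libraries (-0.97 ± 0.32, adjusted p = 0.227). Rfc4 had 33.7, 46.1 and 30.1 CPM in Lin+ against 49.5, 73.5 and 46.7 in S0-Low (-0.69 ± 0.32, adjusted p = 0.498).

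Against S3, 30 of the 44 were lower in Lin+ and 1, Rfc2, was higher, where 14.1% of all tested genes were lower and 28.2% higher. The lower genes included 4 of 6 MCM subunits, 5 of 7 licensing genes, 4 of 4 of nucleotide supply and both E cyclins. The smallest p belonged to Rrm2 (-3.60 ± 0.43, adjusted p = 5.74e-06), Ccne2 (-3.56 ± 0.46, adjusted p = 1.39e-05) and Rrm1 (-2.27 ± 0.30, adjusted p = 1.67e-05). All 3 Lin+ libraries were below S3 in 32 genes and above in 1 (16.1% and 38.3% of all genes). By library totals 15 were lower and 5 higher, against 7.54% and 40.1% of all genes. Rfc2 was not called without S3 replicate 3. The 3 S3 libraries serve in both this comparison and S3 against S0-Low, so the 2 are not independent of each other.

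A list of 50 other genes of DNA replication, of which all 50 were tested, was counted in the same comparisons. In S3 against S0-Low 21 rose and 1 fell, against 13.4% and 22.4% of all tested genes, with a median of 0.74 beside 0.78 for the 44 genes. In S1 against S0-Low 3 rose and none fell, against 0.979% and 1.95% of all genes. In S3 against S2 2 rose and 1 fell, against 3.26% and 6.09%. By library totals 11 rose and 9 fell in S3 against S0-Low, against 6.98% and 37.6% of all genes, and the median was -0.11. The largest rise was that of Ccna2, the S phase cyclin A, with 148, 196 and 146 CPM in S0-Low and 870.3, 1318 and 2227 in S3 (3.18 ± 0.39, adjusted p = 3.28e-05). The largest fall was that of Umps, which makes the pyrimidine precursor uridine monophosphate, with 168, 204 and 151 and 59.6, 80.6 and 15.2 CPM (-1.72 ± 0.49, adjusted p = 0.0144).

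The promoters of the replication genes were searched for short words known as binding sites, which played no part in choosing them. RefSeq windows on GRCm38.p6, from 250 bases before to 50 after an annotated start, were present for 36 of the 45 genes (44 windows). The E2F words TTTCCCGC, TTTGGCGC, TTTCGCGC and TTTGCCGC, on either strand, stood in 14 of the 44 windows (31.8%), against 2.26% of all 32851 windows. The words can overlap one another, since TTTGGCGC followed by GAAA holds TTTCGCGC on the other strand. CCAAT was present in 52.3% of the windows against 37.4% of all, CACGTG in 15.9% against 7.15%, a GATA word (AGATAA or the variant AGATAG, the variant TGATAA or the variant TGATAG) in 11.4% against 29.8%, and TTTGAA in 9.09% against 17.9%. Of the genes with a window, grouped by their highest TMM-scaled mean, 0 of 1 in S0-Medium, 2 of 3 in S1, 8 of 18 in S2 and 3 of 13 in S3 held an E2F word. This grouping depends on the scaling, since 3 of the 44 genes were highest in S3 by library totals. A match is a description of the letters and not of binding.

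The 180 bases before the start are shown for Mcm6, Gins3 and Rfc3, which hold E2F words (in capitals), and for Rrm2 and Ccne1, the genes with the largest rises to S3 and to S1, which hold none in this stretch. They lie at chr1:128359706-128359885, - strand (Mcm6), chr8:95633379-95633558, + strand (Gins3), chr5:151651209-151651388, - strand (Rfc3), chr12:24708074-24708253, + strand (Rrm2) and chr7:38107491-38107670, - strand (Ccne1).
Mcm6: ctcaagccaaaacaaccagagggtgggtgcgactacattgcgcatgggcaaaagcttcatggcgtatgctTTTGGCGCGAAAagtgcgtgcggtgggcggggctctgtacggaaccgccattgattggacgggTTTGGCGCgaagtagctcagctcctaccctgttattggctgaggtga
Gins3: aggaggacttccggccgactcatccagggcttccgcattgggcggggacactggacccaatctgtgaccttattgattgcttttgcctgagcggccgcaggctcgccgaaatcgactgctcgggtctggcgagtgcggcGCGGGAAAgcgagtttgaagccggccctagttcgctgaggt
Rfc3: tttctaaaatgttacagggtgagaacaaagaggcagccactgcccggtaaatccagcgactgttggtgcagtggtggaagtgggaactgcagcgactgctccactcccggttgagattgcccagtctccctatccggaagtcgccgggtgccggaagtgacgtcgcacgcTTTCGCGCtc
Rrm2: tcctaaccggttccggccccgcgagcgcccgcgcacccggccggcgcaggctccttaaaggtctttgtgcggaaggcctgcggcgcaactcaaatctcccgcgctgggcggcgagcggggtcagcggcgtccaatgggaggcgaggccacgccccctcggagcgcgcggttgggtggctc
Ccne1: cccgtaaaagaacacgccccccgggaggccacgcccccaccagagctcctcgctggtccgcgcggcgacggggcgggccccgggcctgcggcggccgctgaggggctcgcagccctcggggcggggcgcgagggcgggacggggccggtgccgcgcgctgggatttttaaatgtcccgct
In Mcm6 the first run of capitals joins overlapping words on opposite strands.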

How the data were processed

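Nascent RNA was profiled by 4sU-seq in 18 libraries, which the labels assign to 6 populations of 3 replicates. The authors used a stranded total RNA kit with PCR amplification, and deposited estimated counts per gene for each library. Kallisto 0.43.0 and GRCm38 are named in the submitters' processing notes, and the values are whole numbers without normalization. The transcript set and the use of strand are not given in the sources used here. By their RefSeq spans 12 of the 45 genes overlap another protein-coding gene, whose reads may not be separable. The members and lists were chosen with earlier results of these data known.

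Counts were tested with edgeR 4.0.16 in R 4.3.3 (TMM, filterByExpr, quasi-likelihood test, two-sided, Benjamini-Hochberg over all genes, called at an adjusted p under 0.05), with 15 erythroid libraries in one model (16555 genes) and all 18 for Lin+ (17755 genes). The biological coefficient of variation was 0.795 and 0.771. CPM used TMM over 18 libraries, and group means used log2(CPM + 0.5). Symbols came from a table of gene identifiers and names, coordinates from RefSeq (GRCm38.p6), and lengths from the longest coding transcript in GENCODE vM1. Total counts ranged from 9452476 to 40567976. On simulated data for S3 against S0-Low over 16030 genes, 1.61% of 62 genes changed 2-fold were recovered. So were 12.7% of 63 changed 4-fold and 47.7% of 65 changed 16-fold. No rate was obtained for the replication genes alone, so these rates cannot be read as theirs. In the measured S3 against S0-Low, Orc5, Pold3 and Rpa1 were called at ratios of means of 2.03, 2.04 and 2.09. Rpa3, at 1.76, was not. A gene that was not called may still have changed.

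Alternatives were RLE factors, library totals, DESeq2 1.42.0, no filter, at least 10 counts in every compared library, the replicate number as a block, and each replicate left out. The numbers were taken to pair libraries where every same-numbered pair of libraries deviated together over genes (r above 0.1), which held in 7 of 9 comparisons (r from 0.171 to 0.547) and not in S3 against S0-Low (0.081 to 0.131) or Lin+ against S3 (0.089 to 0.154). What a shared number stands for is not stated. Genes were given with tests if they had the largest rise or fall of their role in S3 against S0-Low or S1, passed where at most 10 did, or had 1 of the 3 smallest p. Figures were drawn with matplotlib 3.10.9 under Python 3.11.15.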

Additional observations from a re-analysis of the deposited data

How the results depend on the processing

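Of the 5 differences of the group mean that were recomputed, those with S3 depended most on the scaling. By library totals the difference was 0.77 for S2 minus S0-Low, -0.70 for S3 minus S2 and 0.077 for S3 minus S0-Low, against 1.12, -0.23 and 0.90 by TMM. The value of 0.077 is smaller than its error of 0.193, and 22 of the 44 fold changes lay on each side of 0 by totals (median -0.055), so no direction of S3 against S0-Low is shown on that scale. With single libraries left out the difference by TMM ranged from 0.69 to 0.97 for S1 minus S0-Low and 0.96 to 1.24 for S2 minus S0-Low. It was -0.33 to -0.096 for S3 minus S2, 0.74 to 1.02 for S3 minus S0-Low and -0.37 to -0.090 for Lin+ minus S0-Low.

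Counts of called genes (higher, lower) moved as follows. With library totals they were 0 and 11 in S3 against S2, 1 and 12 in S3 against S1, 7 and 6 in S3 against S0-Low, 5 and 15 in Lin+ against S3, and 13 for any difference (all genes 1.74% and 13.7%, 3.54% and 23.6%, 6.98% and 37.6%, 40.1% and 7.54%, and 28.4%). With the replicate block they were 15 higher in S1 against S0-Low, 1 and 3 in S3 against S2, 6 and 2 in S3 against S1, 1 lower in Lin+ against S0-Low, and 30 for any difference among the erythroid populations (all genes 2.81%, 7.3% and 11.3%, 11.1% and 18.2%, 0.648%, and 33.1%). In S3 against S0-Low, where the libraries share only a number, the block gave 25 and 1 (15.9% and 26.4%). DESeq2 gave 8 in S1 against S0-Low, 2 and 3 in S3 against S2, 4 and 2 in S3 against S1, 22 and 2 in S3 against S0-Low, and 1 lower in Lin+ against S0-Low (2.22%, 7.79% and 12.3%, 11.2% and 19.2%, 14.9% and 29.1%, and 0.727%). RLE factors gave 1 in S1 against S0-Low, 1 lower in S3 against S2, and 17 and 1 in S3 against S0-Low (0.707%, 5.82%, and 12.1% and 24.8%). Without a filter there were 5 in S1 against S0-Low, and 0 lower in S3 against S2 and S3 against S1 (1.2%, 5.93% and 8.66%). When every compared library had to hold at least 10 counts there were 1 in S1 against S0-Low, 3 lower in S3 against S1, and 16 and 1 in S3 against S0-Low (0.994%, 14.1%, and 19.2% and 19.3%). The causes were not tested.

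With single libraries left out, counts in S1 against S0-Low ranged from 0 to 1 higher (0.208% to 0.48% of all genes). In S3 against S2 they were 0 to 1 higher and 0 to 1 lower (0.934% to 4.8% and 2.92% to 9.11%). In S3 against S1 they were 1 to 4 and 0 to 1 (3.36% to 6.59% and 6.42% to 13.2%). In S3 against S0-Low they were 15 to 19 and 0 to 1 (9% to 12.3% and 14.7% to 21.8%). In Lin+ against S3 they were 0 to 1 and 23 to 30 (20% to 25.9% and 10.6% to 13%). For any difference they were 11 to 19 (18.7% to 24.2%).

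Fold changes above 0 went from 37 by TMM to 22 by totals in S3 against S0-Low, from 21 to 7 in S3 against S1 and from 17 to 3 in S3 against S2. Among only the genes given with tests, library totals turned in S3 against S1 Gins3 (-0.19), Mcm7 (-0.43), Pcna (-0.041) and Rpa3 (-0.13), and in S3 against S0-Low Mcm7 (-0.21). With single libraries left out, Rpa2 in S3 against S1 ranged from -0.41 to 0.096 (without S1 replicate 3), Rpa3 from -0.098 (without S3 replicate 1) to 0.725, and Pold2 in S3 against S0-Low from -0.71 to 0.070 (without S3 replicate 1). None of these had been called.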

Other observations

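A list of 20 mitosis genes, all of them tested, was followed beside the replication genes. In S3 against S0-Low all 20 rose, with a median log2 fold change of 2.08, where 21 of the 44 replication genes rose with a median of 0.78 and 13.4% of all tested genes rose. In S3 against S2 10 of the 20 rose and none fell, with a median of 1.30, where none of the 44 rose, their median was -0.26 and 3.26% of all genes rose. By library totals 15 of the 20 rose in S3 against S0-Low and none fell, against 6.98% and 37.6% of all genes. The largest rise was that of Nusap1, which binds spindle microtubules, with 70.3, 68.7 and 90.1 CPM in S0-Low and 536, 613 and 1934 in S3 (3.76 ± 0.74, adjusted p = 0.00129). The smallest was that of Ttk, a kinase of the spindle checkpoint, with 57.4, 52.6 and 26.5 and 49.7, 78.1 and 186 CPM (1.20 ± 0.42, adjusted p = 0.0386), and by totals Ttk was not called. The difference between the lists was not tested.

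The libraries of a population differed in the same way for many of the 44 genes. In S1 replicate 3 held the highest value for 39 of 44 genes and in S2 for 36, in S0-Low replicate 3, the shallowest library, held the lowest for 32, and in Lin+ replicate 3 held the lowest for 33. The erythroid marker sum was also highest in replicate 3 of S1 (7269 CPM, against 3084 and 3175 in the other 2 libraries) and of S2 (14150, against 5801 and 6504), where the 44 genes were mostly highest. In S0-Low it was highest in replicate 3 as well (1336, against 513 and 813), where the 44 genes were mostly lowest, and in Lin+ it was 360 to 366 in the 3 libraries. Its part in the level of the 44 genes was not tested.

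Pola1 and Prim2, chosen after their values were seen, have the longest genes of the 45 (327622 and 216001 bases on GRCm38.p6). Their replicate 1 was the highest of its population in S0-Low, S0-Medium, S1, S3 and Lin+. For Pola1 the levels were 413, 222 and 141 CPM in S0-Low, 572, 279.6 and 380 in S0-Medium, 637, 355 and 323 in S1, 573, 392 and 584 in S2, 745, 554 and 522 in S3 and 279.7, 259 and 216 in Lin+, and for Prim2 207, 99.6 and 116, 354, 136 and 196, 355, 189 and 235, 302, 269.9 and 408, 485, 411 and 318 and 130.2, 111 and 98.4. In S2 replicate 3 was the highest for both.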
